A study of Mus musculus with 8 samples.

Results

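The 10 genes described here encode the alpha, beta and gamma chains of fibrinogen (Fga, Fgb, Fgg), albumin (Alb), fetuin-A (Ahsg), transthyretin (Ttr), alpha-fetoprotein (Afp), a mouse form of alpha-1 antitrypsin (Serpina1b), liver fatty acid binding protein (Fabp1) and apolipoprotein A-I (Apoa1). They are 10 of the 49315 Ensembl gene IDs counted in this series and were matched by gene symbol. They were chosen because several of them are high in the kidneys numbered 1 and 4 of the knockout group, so their levels are given as a description, without a test. Polyadenylated RNA of 8 frozen mouse kidneys was sequenced, 4 from controls, which the extraction protocol calls wild type, and 4 carrying a conditional deletion of Kdm1a, whose product LSD1 removes methyl groups from histone H3. The series asks how gene regulation in the kidney depends on Kdm1a. The labels used here give no Cre driver, deleted cell type, strain, sex or age, and no treatment. They number the kidneys 1 to 4 in each group and do not say that each came from a different animal, so error estimates measure the spread between these samples.

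Fibrinogen is the soluble precursor of the fibrin clot. Hepatocytes make its chains from neighbouring genes, assemble them in the endoplasmic reticulum and secrete the hexamer into plasma, and interleukin-6 raises this synthesis in the acute phase response. Albumin, fetuin-A, transthyretin, alpha-1 antitrypsin and apolipoprotein A-I are likewise abundant plasma proteins of hepatocyte origin, and alpha-fetoprotein takes the place of albumin in fetal life. Proximal tubule cells of the kidney share with hepatocytes regulators of such genes, among them Hnf4a, and reabsorb many plasma proteins from the filtrate.

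Total counts ranged from 19524945 to 28544511 per library. Kdm1a lay between 109.7 and 119.8 counts per 1000000 (CPM) in controls and between 90.9 and 95.3 CPM in knockouts. Levels in CPM use library sizes scaled by the trimmed mean of M values (TMM). Xist, the RNA that coats the inactive X chromosome, was at 964.5, 1086 and 1047 CPM in control kidney 2 and knockout kidneys 1 and 4 and at most at 6.14 CPM in the other 5, while the Y-linked Ddx3y was at most at 1.08 CPM in those 3 and at least at 75.5 CPM in the others. A list of 14 adrenal genes summed to 3424 CPM in knockout kidney 1, 491.2 in knockout kidney 4, 194 in control kidney 4 and between 24.3 and 40.4 CPM in the other 5. The 20 genes of a proximal tubule list summed to between 790 and 2943 CPM in controls and between 183 and 555 CPM in knockouts. All 20 had counts in every library but knockout kidney 2, where 19 had. In that kidney Dab2 (93.9 CPM) and Aqp1 (39.0 CPM) were the highest of the list. Kap was at 0 there, and Slc5a2 and Slc22a6 were at 0.301 and 0.402 CPM. Knockout kidneys 1 and 4 therefore differed from knockout kidneys 2 and 3 in Xist, in Ddx3y and in adrenal transcripts as well as in the genes described below, and the part of these differences in the levels below was not tested, apart from the values printed with them.

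Fga, Fgb and Fgg lie side by side on mouse chromosome 3 (GRCm38 coordinates of the deposited tables: Fgg 83007724 to 83015049, Fga 83026076 to 83033627, Fgb 83040141 to 83049863, the last on the minus strand). The gap from Fgg to Fga is 11 kb and from Fga to Fgb 6.51 kb. The bases just upstream of their starts are shown because the 3 chains were high together in the same kidneys. They come from RefSeq (GRCm38.p6) and run 5′ to 3′ on the strand of the gene: Fga chr3:83025903-83026075 (+), Fgb chr3:83049864-83050113 (-) and Fgg chr3:83007474-83007723 (+). Bases that the annotation places in exons of the same gene were left out. Capitals mark short motifs searched on both strands, namely TTGCNNAA (C/EBP), TGTTTGC (FOXA), CAAAGTCCA (HNF4) and CTGGGA (the core of interleukin-6 response elements).
Fga: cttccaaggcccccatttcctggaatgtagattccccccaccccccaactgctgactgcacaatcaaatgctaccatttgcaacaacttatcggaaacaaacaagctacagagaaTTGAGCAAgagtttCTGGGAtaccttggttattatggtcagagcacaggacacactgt
Fgb: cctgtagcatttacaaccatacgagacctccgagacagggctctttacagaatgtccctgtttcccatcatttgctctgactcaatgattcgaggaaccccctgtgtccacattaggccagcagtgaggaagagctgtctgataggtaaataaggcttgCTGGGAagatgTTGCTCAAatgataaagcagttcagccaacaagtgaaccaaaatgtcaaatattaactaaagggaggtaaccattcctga
Fgg: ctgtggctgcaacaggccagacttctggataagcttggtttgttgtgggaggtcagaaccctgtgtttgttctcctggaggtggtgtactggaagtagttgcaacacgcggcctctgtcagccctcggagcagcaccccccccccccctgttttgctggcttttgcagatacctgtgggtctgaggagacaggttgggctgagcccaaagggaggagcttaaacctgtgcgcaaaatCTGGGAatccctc

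CTGGGA was found upstream of all 3 fibrinogen genes, 121, 91 and 13 bases before the RefSeq starts of Fga, Fgb and Fgg, the first of which lies 77 bases beyond the end of the printed bases. Of all 32851 windows of 250 bases upstream of RefSeq starts, 27.0% hold these letters. TTGCNNAA was found 135 bases before Fga and 80 bases before Fgb, beside 9.56% of all windows. The motifs were picked after the windows had been seen, and a match says only that these letters are there.

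Fgg, the gamma chain, which carries a binding site of leukocyte and platelet integrins, was at 0.983, 0.510, 0.726 and 1.09 CPM in control kidneys 1 to 4 and at 25.97, 0.100, 0.311 and 13.2 CPM in knockout kidneys 1 to 4. Knockout kidneys 1 and 4 stood far above the other 6 libraries, and knockout kidneys 2 and 3 were the lowest of the 8, so the groups overlapped. Kidney 1 was 23.8 times and kidney 4 12.1 times as high as the highest of the other 6. The log2 fold change, knockout over control, was 3.57 with a standard error (SE) of 1.32. In control kidney 2, which shares the Xist and Ddx3y pattern of these knockout kidneys, Fgg was the lowest of the controls, while Apoa1, described below, was the highest of the controls there.

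Fgb, the beta chain, whose N-terminal peptide thrombin removes during clotting, was at 2.13, 1.62, 4.601 and 4.45 CPM in controls and at 37.5, 0.151, 1.94 and 18.5 CPM in knockouts. The order of the knockout kidneys was the same as for Fgg, with kidney 2 at 3 counts. Its log2 fold change was 2.18 (SE 1.11). Fga, the alpha chain, which factor XIII crosslinks in the clot, was at 6.27, 3.20, 7.22 and 7.54 CPM in controls and at 32.0, 0.0502, 2.08 and 16.9 CPM in knockouts. Knockout kidneys 2 and 3 lay below every control and knockout kidneys 1 and 4 above every control, and the log2 fold change was 1.07 (SE 1.04). Without knockout kidneys 1 and 4 the log2 fold changes of Fga, Fgb and Fgg were -2.44, -1.56 and -1.91. With Y-linked transcripts as a covariate they were -1.06, -0.14 and 0.57. The sign of Fga also turned with the replicate number as a block (-0.08) and with limma-voom (-0.31). Fgb and Fgg were at 0.95 and 2.25 with the block and at 0.92 and 2.18 with limma-voom. Without knockout kidney 1 alone the 3 were at 0.08, 1.103 and 2.45.

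**Figure D1:**
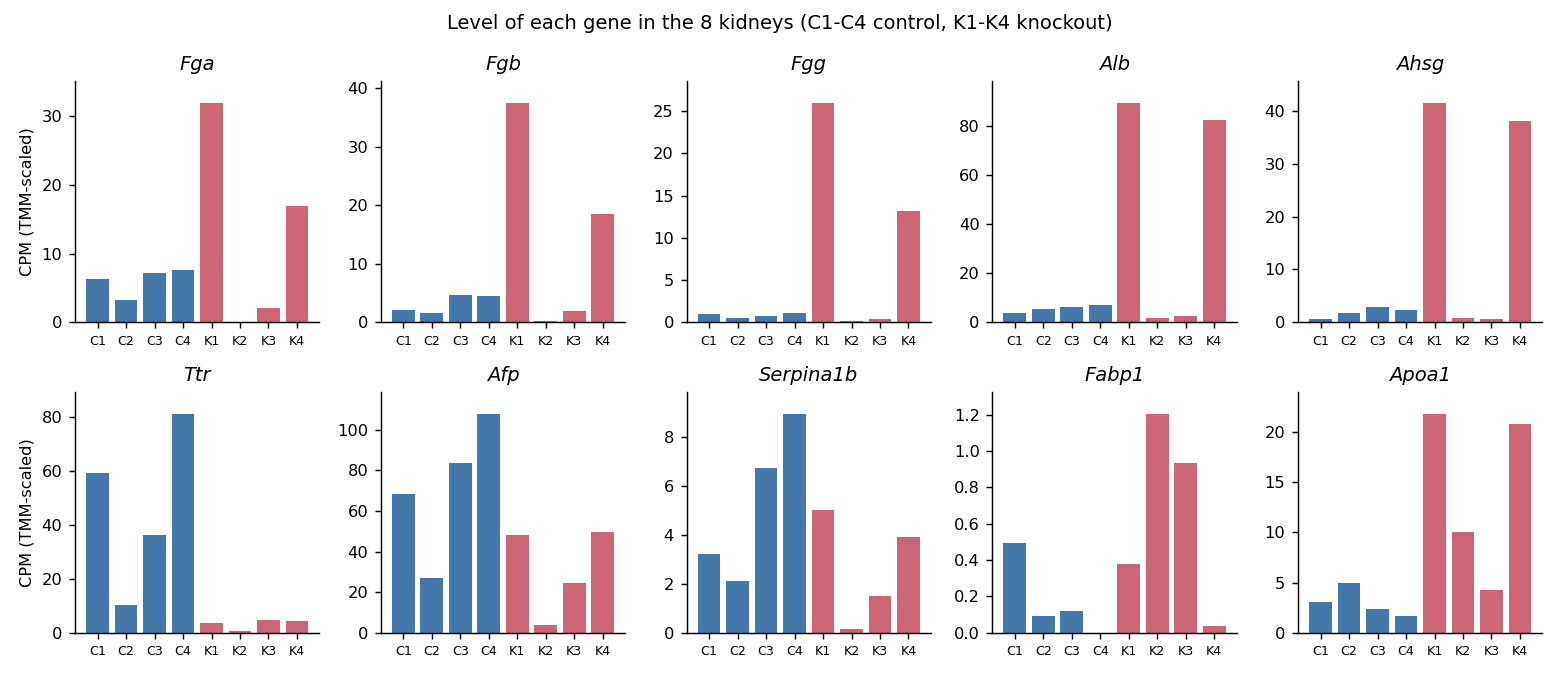
Level of each of the 10 genes in CPM with TMM-scaled library sizes, 1 panel per gene, 1 bar per kidney library (C1 to C4 control, K1 to K4 knockout), each panel with its own axis from 0. Fga, Fgb, Fgg, Alb, Ahsg and Apoa1 have their 2 highest bars in K1 and K4, while Ttr, Afp and Serpina1b are highest in C4 and Fabp1 in K2.

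The chains were not high in the same proportions in all kidneys. Compared per length of exon, as reads per kilobase scaled for library size (RPKM), Fga exceeded Fgg 4.43, 4.36, 6.91 and 4.81 times in controls and 4.64 times in knockout kidney 3. Fgg had only 24, 11, 18 and 24 counts in controls and 9 in knockout kidney 3, so the ratio of Fga to Fgg is imprecise there. In knockout kidneys 1 and 4 this ratio was 0.856 and 0.895, so that the 3 chains stood at nearly equal levels per length (10.6, 9.83 and 12.4 for Fga, Fgb and Fgg in kidney 1, and 5.63, 4.84 and 6.29 in kidney 4). As a share of the counts of the 3 chains, Fga made up 66.8%, 60.0%, 57.6% and 57.6% in controls. The share was 33.5% in knockout kidney 1 (95% exact interval 31.6 to 35.5%), 34.9% in knockout kidney 4 (32.3 to 37.5%) and 48.0% in knockout kidney 3 (39.0 to 57.1%). Knockout kidney 2 had 6 counts in all for the 3 chains, too few for a share. These intervals cover counting error only, since reads amplified by PCR without molecular identifiers are not independent molecules.

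**Figure D2:**
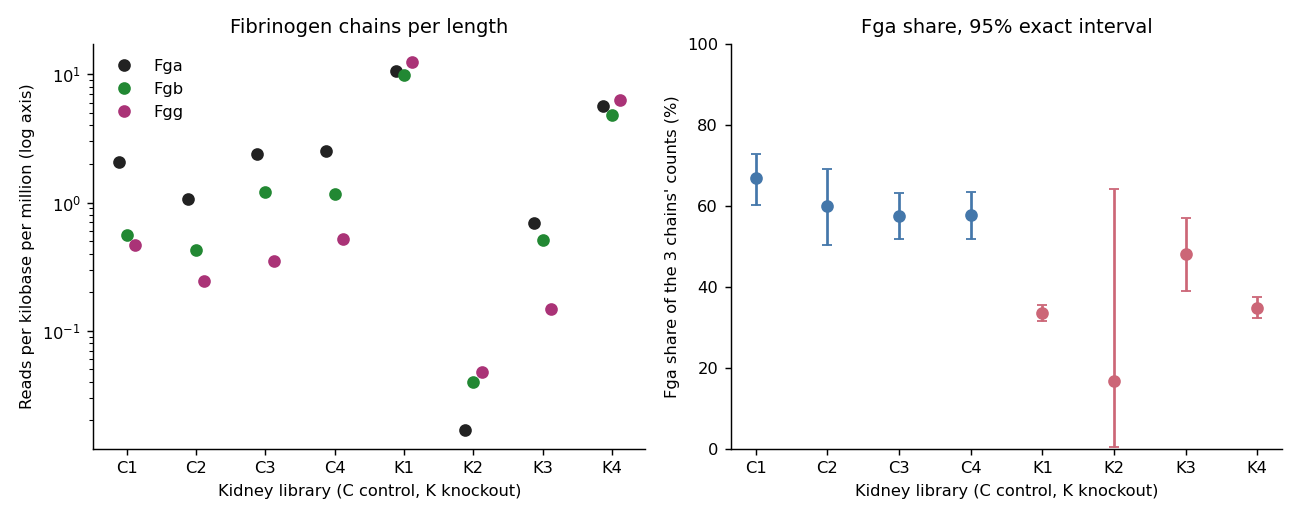
Left, level of each fibrinogen chain per length of exon (RPKM, log axis) in the 8 kidneys. Right, share of Fga in the counts of the 3 chains with its 95% exact binomial interval. In K1 and K4 the chains lie together and Fga is at 33.5% and 34.9%, while in the 4 controls Fga lies above Fgb and Fgb above Fgg and its share is between 57.6% and 66.8%.

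Albumin, the main protein of plasma, showed the same kidneys apart. Alb (chromosome 5, 90460897 to 90476602) was at 3.52, 5.47, 6.01 and 7.09 CPM in controls and at 89.3, 1.71, 2.35 and 82.4 CPM in knockouts. Knockout kidneys 2 and 3 lay below every control, knockout kidneys 1 and 4 were 12.6 and 11.6 times as high as the highest of the other 6, and the log2 fold change was 2.99 (SE 1.13). Ahsg, encoding fetuin-A, a plasma protein that keeps calcium phosphate from precipitating (chromosome 16, 22892042 to 22899438), was at 0.533, 1.72, 2.95 and 2.27 CPM in controls and at 41.6, 0.703, 0.657 and 38.2 CPM in knockouts. Kidneys 1 and 4 were again the highest, 14.1 and 12.97 times the highest of the rest, and the log2 fold change was 3.44 (SE 1.26). Without them it was -1.43 for Alb and -1.45 for Ahsg. With the Y-linked covariate it was 0.38 for Alb and 0.67 for Ahsg, with the replicate block 1.59 and 2.02, and with limma-voom 2.22 and 2.58.

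Afp (chromosome 5, 90490737 to 90508907) starts 14.1 kb downstream of the end of Alb and followed another order. It was at 68.3, 26.8, 83.5 and 107.9 CPM in controls and at 48.1, 3.82, 24.6 and 49.9 CPM in knockouts, with a log2 fold change of -1.18 (SE 0.65). The groups overlapped, because control kidney 2 lay below knockout kidneys 1 and 4. Alb took 4.90%, 16.9%, 6.72% and 6.16% of the summed counts of Alb and Afp in controls. In knockouts the share was 65.0%, 30.9%, 8.72% and 62.3%, with 95% exact intervals of 63.3 to 66.6% in kidney 1 and 60.7 to 63.9% in kidney 4. Of the controls, kidney 2 was the nearest to these. The third gene of this cluster among those listed, Afm, which encodes the vitamin E carrier afamin and lies 10.02 kb beyond Afp, was called lower in knockouts (log2 fold change -1.13, SE 0.29, edgeR adjusted p = 0.035). Afm lost the call without any 1 of control kidneys 1, 3 or 4 or knockout kidneys 1, 2 or 4, where its edgeR adjusted p was 0.084, 0.092, 0.092, 0.093, 0.091 and 0.102. The upstream windows of Alb (chr5:90460620-90460869) and Afp (chr5:90490464-90490713), both on the plus strand, are shown because the neighbours went apart.
Alb: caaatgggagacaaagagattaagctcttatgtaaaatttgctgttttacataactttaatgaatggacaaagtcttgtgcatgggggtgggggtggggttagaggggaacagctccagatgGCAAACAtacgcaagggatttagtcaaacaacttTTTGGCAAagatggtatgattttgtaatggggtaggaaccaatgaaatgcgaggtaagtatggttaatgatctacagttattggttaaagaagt
Afp: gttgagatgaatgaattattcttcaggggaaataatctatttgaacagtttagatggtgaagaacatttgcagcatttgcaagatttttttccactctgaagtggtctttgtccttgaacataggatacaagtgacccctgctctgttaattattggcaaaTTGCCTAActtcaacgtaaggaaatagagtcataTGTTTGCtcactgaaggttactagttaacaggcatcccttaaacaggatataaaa

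Both windows hold TTGCNNAA (94 bases before the start of Alb and 89 before that of Afp) and TGTTTGC (128 and 55 bases). TGTTTGC was in 4.30% of all windows. Over the 9 genes with a RefSeq window, TTGCNNAA was found in 7, TGTTTGC in 6 and CTGGGA in 4. CAAAGTCCA, present in 0.384% of all windows, was found in 0 of the 9. The C/EBP and FOXA letters of Fabp1 overlap each other.

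Transthyretin carries thyroid hormone and, bound to the retinol binding protein, vitamin A. Ttr (chromosome 18) was at 59.5, 10.2, 36.4 and 81.4 CPM in controls and at 3.80, 0.602, 4.84 and 4.35 CPM in knockouts, and it is the only member whose groups did not overlap. In 18.9% of all genes tested the 4 knockout libraries lay on 1 side of the 4 controls. Its log2 fold change was -3.76 (SE 0.69) and lay between -4.08 and -3.36 when each library was left out in turn. Ttr was not high in knockout kidneys 1 and 4, which stood at 0.0467 and 0.0535 times the highest of the other 6 libraries. Over the 8 libraries its log2 CPM followed the mean of the proximal tubule list without its gene Kap (Pearson r = 0.99, 8 libraries of 1 tissue that differ in genotype). With the same mean r was 0.79 for Afp, 0.70 for Serpina1b and -0.84 for Apoa1. The other tested members lay between -0.30 (Ahsg) and 0.39 (Fga). In a bulk sample fewer cells of a type cannot be told apart from less RNA per cell.

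Apoa1, which encodes the main protein of high-density lipoprotein (chromosome 9, 46228580 to 46230466), was at 3.03, 4.91, 2.34 and 1.68 CPM in controls and at 21.8, 10.04, 4.26 and 20.8 CPM in knockouts. Knockout kidneys 1 and 4 were the highest, kidney 2 was also above every control, and kidney 3 was below control kidney 2. The mean was 2.99 ± 1.40 CPM in controls and 14.2 ± 8.51 CPM in knockouts (SD, n = 4), and the log2 fold change was 2.25 (SE 0.52). Without knockout kidneys 1 and 4 its log2 fold change was 1.25, whereas those of Alb, Ahsg and the 3 fibrinogen genes were below 0. With the Y-linked covariate it was 1.80. Against Alb, it took 19.6% and 20.1% of the summed counts of both genes in knockout kidneys 1 and 4, and 85.5% and 64.4% in knockout kidneys 2 and 3.

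Counted together, 9 of the 10 genes passed the filter on low counts and 2 of these 9 (22.2%) had an adjusted p under 0.05 in the edgeR fit, Apoa1 higher and Ttr lower in knockouts. Of all 18485 genes tested, 14.9% were called, 6.61% higher and 8.27% lower, and nothing is read from the members' count, because they were chosen on these libraries. Apoa1 lost its call without control kidney 1, 3 or 4 or knockout kidney 1, 2 or 4, and Ttr without knockout kidney 1 or 4, so 0 members were called without knockout kidney 1 and 0 without knockout kidney 4. Counts were 1 without each of control kidneys 1, 3 and 4 and knockout kidney 2, and 5 without knockout kidney 3. Knockout kidneys 1 and 4 were the 2 highest libraries for 6 members (Fga, Fgb, Fgg, Alb, Ahsg, Apoa1) and for 7.70% of all genes tested. Knockout kidney 2 was the lowest library for 7 members, and control kidney 4 the highest for 3 (Ttr, Afp, Serpina1b).

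Per length of exon, the order of the members differed between kidneys. In each control Ttr was first (RPKM from 8.33 to 66.8) and Afp was next (7.97 to 32.1), the 2 nearly level in control kidney 2 at 8.33 and 7.97. In knockout kidneys 1 and 4 Alb was first (38.1 and 35.2), followed by Ahsg (28.2 and 25.9), Apoa1 (17.6 and 16.8) and Afp (14.3 and 14.8). In knockout kidney 3 Afp (7.31) was ahead of Ttr (3.97) and Apoa1 (3.44), and in knockout kidney 2 Apoa1 (8.12) was ahead of Fabp1 (2.18) and Afp (1.13). In controls the other 8 genes lay at or under 3.98, and their order changed from library to library. The 10 genes summed to between 56.7 and 222 CPM in controls and to 305.4, 18.5, 43.5 and 248 CPM in knockout kidneys 1 to 4.

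The 2 kidneys with high fibrinogen and albumin did not have the same profile. After scaling, Alb was 1.08 times as high in knockout kidney 1 as in knockout kidney 4 (95% exact counting interval 1.02 to 1.15), Ahsg 1.09 times (0.998 to 1.19) and Apoa1 1.05 times (0.929 to 1.18). Fga was 1.89 times as high (1.68 to 2.12), Fgb 2.03 times (1.82 to 2.27) and Fgg 1.97 times (1.73 to 2.25), so the intervals of the 3 chains lay above those of the other 3 genes. Over 50 other liver-type genes with at least 20 counts in each of these 2 kidneys, the median ratio was 1.09, from 0.628 for C3 to 4.601 for C4b. Hpx (2.42), Hp (1.75) and Kng1 (1.74), plasma proteins that bind heme, bind hemoglobin and release bradykinin, were above that median. They were named after their values had been seen, and other genes of the list were above it too, among them Apoc4 (3.80), Masp1 (2.16) and Apoa5 (1.85). Over 14 adrenal genes the median was 6.72, with Cyp21a1 and Cyp11b1, enzymes of steroid synthesis in the adrenal cortex, at 11.8 and 11.6, and Pnmt, the enzyme of chromaffin cells that makes adrenaline, at 8.55. Th, Dbh, Chga and Chgb, genes of chromaffin and other neuroendocrine cells, were at 1.38, 0.805, 1.40 and 1.13. These ratios compare 2 libraries and not the genotypes.

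**Figure D3:**
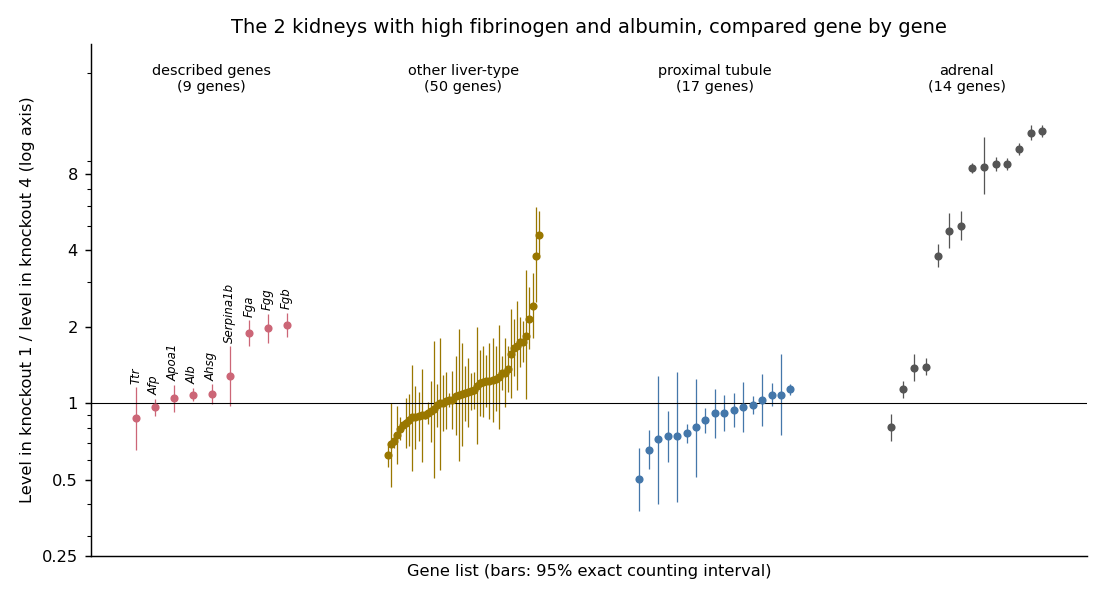
Level in knockout kidney 1 divided by level in knockout kidney 4 (log axis, TMM-scaled) for single genes of 4 lists, with 95% exact counting intervals. Alb, Ahsg and Apoa1 lie near 1, the 3 fibrinogen genes near 2, and most adrenal genes far above both.

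Serpina1b, the member of the alpha-1 antitrypsin family chosen here, is an inhibitor of neutrophil elastase (chromosome 12, 103728156 to 103830373, minus strand). It was at 3.24, 2.13, 6.74 and 8.95 CPM in controls and at 5.03, 0.151, 1.52 and 3.92 CPM in knockouts, with a log2 fold change of -0.98 (SE 0.75). The groups overlapped and knockout kidneys 1 and 4 lay within the range of the controls. Its close copy Serpina1e was at 0.737, 1.53, 0.807 and 1.36 CPM in controls and at 14.5, 0.452, 0.311 and 15.3 CPM in knockouts, which is the pattern of Alb and not of Serpina1b. Serpina1e took 18.6%, 41.8%, 10.7% and 13.2% of the summed counts of this pair in controls, and 74.2% (95% exact interval 70.0 to 78.2%) and 79.6% (75.9 to 82.9%) in knockout kidneys 1 and 4. Control kidney 2 was again the nearest of the controls to these 2. Knockout kidney 2 had a share as high, 75% (42.8 to 94.5%), but from only 9 counts of Serpina1e and 3 of Serpina1b. In knockout kidney 3 the share was 16.98% (8.07 to 29.8%), from 9 and 44 counts. A high share was therefore not seen only in knockout kidneys 1 and 4, although that of kidney 2 is imprecise. Serpina1c and Serpina1d were also highest in knockout kidneys 1 and 4 (1.82 and 1.33 CPM, and 2.20 and 1.91 CPM), whereas Serpina1a followed Serpina1b and Serpina1f was at most at 0.0360 CPM in knockouts and between 0.185 and 1.29 CPM in controls. All values of this family are uncertain. Of the words of 50 bases in the Serpina1b exons, 28.2% also occur in another copy and 16.5% in Serpina1e, the deposited Serpina1b gene spans Serpina1d and 3 predicted genes on its own strand, and the handling of reads with several matches is not given in the sources used here.

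The upstream windows of the pair are shown because the counts of the copies went apart: Serpina1b chr12:103738190-103738439 and Serpina1e chr12:103956899-103957147, both on the minus strand. The first starts at the RefSeq start, which lies inside the span that the files give for Serpina1b.
Serpina1b: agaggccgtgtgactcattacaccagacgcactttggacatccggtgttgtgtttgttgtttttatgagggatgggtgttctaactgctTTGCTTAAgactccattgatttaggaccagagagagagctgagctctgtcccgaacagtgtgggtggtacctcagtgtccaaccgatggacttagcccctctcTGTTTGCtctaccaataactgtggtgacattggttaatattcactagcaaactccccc
Serpina1e: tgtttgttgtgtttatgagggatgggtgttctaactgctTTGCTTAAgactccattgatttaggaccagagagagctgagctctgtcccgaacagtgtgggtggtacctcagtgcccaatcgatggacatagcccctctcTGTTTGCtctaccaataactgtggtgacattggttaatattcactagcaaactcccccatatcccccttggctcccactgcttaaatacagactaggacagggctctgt

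TGTTTGC and TTGCNNAA occur in the same order in both, 58 and 161 bases before the start of Serpina1b and 110 and 211 bases before that of Serpina1e.

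**Figure D4:**
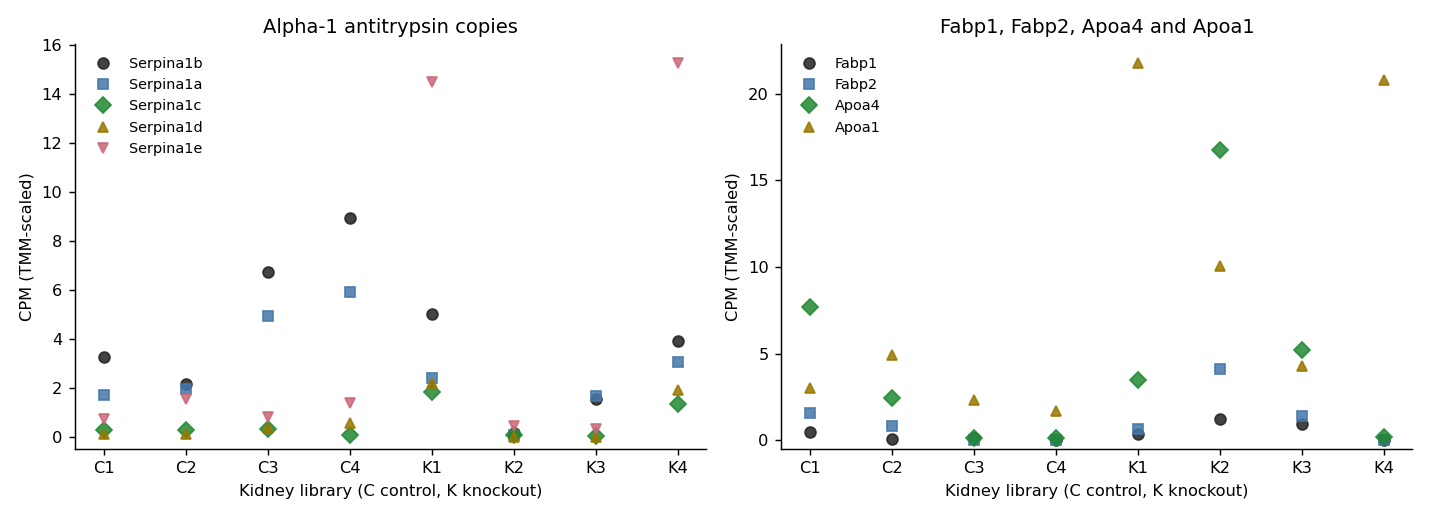
Left, level in CPM of Serpina1b and 4 copies in the 8 kidneys. Right, level in CPM of Fabp1, Fabp2, Apoa4 and Apoa1. Serpina1e is at 14.5 and 15.3 CPM in K1 and K4 and at most at 1.53 CPM elsewhere, and Apoa4 and Fabp2 are highest in K2, where Apoa1 is at 10.04 CPM.

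Fabp1 carries fatty acids inside hepatocytes and enterocytes and is the only member that is not secreted. It had 78 counts in all 8 libraries and did not pass the filter. Its counts were 12, 2, 3 and 0 in controls and 9, 24, 27 and 1 in knockouts, and the 0 allows up to 3 counts. Knockout kidney 4, among the highest for Alb, was among the lowest for Fabp1, and the groups overlapped. Fabp2, the intestinal fatty acid binding protein, was at 1.56, 0.835, 0 and 0 CPM in controls and at 0.634, 4.12, 1.38 and 0 CPM in knockouts. Apoa4, an apolipoprotein of the small intestine that lies 10.2 kb from Apoa1, was at 7.70, 2.46, 0.121 and 0.136 CPM in controls and at 3.46, 16.8, 5.19 and 0.180 CPM in knockouts. Apoa4 and Fabp2 were low in control kidneys 3 and 4 and in knockout kidney 4 and highest in knockout kidney 2. Fabp1 was also low in those 3, but as low in control kidney 2, and its counts in knockout kidneys 2 and 3 were too few to set these apart. Of a list of 9 intestine genes, Sis was at 0 in all libraries and 1 of the 5 that passed the filter was called, Vil1, a microvillus protein also made in the proximal tubule, which was lower in knockouts (log2 fold change -2.31, SE 0.50, edgeR adjusted p = 0.024). Vil1 kept its call without control kidney 2 or knockout kidney 2 or 3, and without each of the others its edgeR adjusted p was 0.065, 0.066, 0.065, 0.068 and 0.080 (controls 1, 3 and 4, then knockouts 1 and 4). Fabp3, the heart type of the family, was lower too (-2.64, SE 0.65, edgeR adjusted p = 0.032), and the highest edgeR adjusted p of Fabp3 with 1 library left out was 0.098, without knockout kidney 4. It kept the call without control kidney 2 or knockout kidney 3 alone.

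Genes of the clotting cascade outside the members were mixed. Of all genes tested, 14.9% were called, 6.61% higher and 8.27% lower, and these shares stand beside the counts of every list from here on. Of 19 listed clotting genes 10 passed the filter, 0 were called higher and 5 lower, and their median log2 fold change was -0.88, beside 0.0044 over all genes tested. The 5 were F13b (-3.44, SE 0.82), the carrier subunit of factor XIII, F10 (-2.51, SE 0.62), Proc (-2.21, SE 0.59), Cpb2 (-1.96, SE 0.54) and Serpinf2 (-3.19, SE 0.70), the plasmin inhibitor, with edgeR adjusted p between 0.024 and 0.041. Serpinf2 was at 41.5, 11.5, 32.2 and 70.0 CPM in controls and at 4.69, 0.402, 7.06 and 4.53 CPM in knockouts. For 4 of the 10 tested genes (Pros1, Serpinc1, Kng1, Vtn) knockout kidneys 1 and 4 were the 2 highest libraries, beside 7.70% of all genes tested, and the list was put together with earlier results known. Among genes not tested, F2 (prothrombin) and Plg (plasminogen) were at most at 0.565 and 0.455 CPM outside knockout kidneys 1 and 4, and at 2.66 and 2.48 CPM and 4.10 and 3.27 CPM in these 2. They had too few counts to pass the filter and were named after their values had been seen. All 5 clotting calls held without control kidney 2, 4 without knockout kidney 3, 1 without knockout kidney 2 and 0 without any 1 of the others, where the highest edgeR adjusted p was 0.113.

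Genes that act on fibrin or bind it, 13 in number and all tested, had 2 calls, both higher in knockouts: F13a1, the catalytic subunit of factor XIII made by macrophages and platelets (0.90, SE 0.19, edgeR adjusted p = 0.021), and the integrin subunit Itgb3 (0.79, SE 0.22, edgeR adjusted p = 0.041). F13a1 was at 18.7, 17.8, 19.3 and 10.2 CPM in controls and at 29.8, 33.4, 27.6 and 32.4 CPM in knockouts, so that knockout kidneys 2 and 3 shared the level of 1 and 4. Both calls held without control kidney 2 or knockout kidney 3, that of F13a1 also without control kidney 4, and neither without any 1 of the other 5 (highest edgeR adjusted p 0.107). Plau, the gene of urokinase, was at 209, 72.7, 289 and 413 CPM in controls and at 17.6, 8.63, 134 and 22.4 CPM in knockouts and was not called (edgeR adjusted p = 0.082). It was named after its values had been seen.

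Among 20 carriers and protease inhibitors of plasma, 13 were tested, 1 was called higher and 2 lower, with a median log2 fold change of 0.23. For 9 of the 13 (Rbp4, Gc, Hpx, Hp, Ambp, Itih2, Itih3, Itih4, Pzp) knockout kidneys 1 and 4 were the 2 highest libraries, beside 7.70% of all genes tested, so this order was seen in Itih4 but not in the 2 genes called lower. The inhibitor subunit Itih4 rose (3.60, SE 0.73, edgeR adjusted p = 0.020) from 0, 0.139, 0.0807 and 0.227 CPM in controls to 2.53, 0.803, 0.554 and 1.62 CPM in knockouts, without overlap. Serpina6, which encodes the corticosteroid carrier of plasma, fell (-5.29, SE 1.30, edgeR adjusted p = 0.032) from 166, 22.9, 214 and 309 CPM to 0.253, 0, 16.2 and 0.935 CPM. The other lower gene was Afm. Of the 14 apolipoproteins and lipoprotein proteins, 9 were tested, Apob (1.73, SE 0.35, edgeR adjusted p = 0.020) and Mttp (0.43, SE 0.11, edgeR adjusted p = 0.034) were higher and Apom (-2.46, SE 0.40, edgeR adjusted p = 0.013) was lower, with a median of 0.27. Apob and Mttp, the structural protein and the loading factor of chylomicrons and very-low-density lipoprotein, were higher in all 4 knockouts than in any control. All 3 apolipoprotein calls and all 3 carrier calls held without control kidney 2 and without knockout kidney 3, while 0 of both lists held without knockout kidney 4 (highest edgeR adjusted p 0.102). Without control kidney 1, 3 or 4 or knockout kidney 1 or 2, from 0 to 1 of the carrier calls and from 1 to 2 of the apolipoprotein calls held.

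In the complement list 9 of 17 genes were tested, 3 were called higher and 2 lower, and the median log2 fold change was 0.27. The higher genes were C1ra (0.65, SE 0.11, edgeR adjusted p = 0.015) and C1s1 (0.67, SE 0.14, edgeR adjusted p = 0.022), the proteases of the first component, and C3 (1.83, SE 0.43, edgeR adjusted p = 0.029). The lower ones were the regulator Cfi (-1.32, SE 0.25, edgeR adjusted p = 0.019) and C8g (-0.51, SE 0.14, edgeR adjusted p = 0.037), a subunit of the membrane attack complex. C3 was at 8.97, 14.7, 10.9 and 3.82 CPM in controls and at 22.2, 58.2, 21.2 and 35.3 CPM in knockouts, highest in knockout kidney 2, where 7 of the 10 described genes were at their lowest. All 5 calls held without control kidney 2 or knockout kidney 3, from 1 to 3 without control kidney 1, 3 or 4 or knockout kidney 1 or 2, and 0 without knockout kidney 4 (highest edgeR adjusted p 0.105). C3 and C8g came after the other 3 in the order of adjusted p and are named beyond the rule for named genes.

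**Figure D5:**
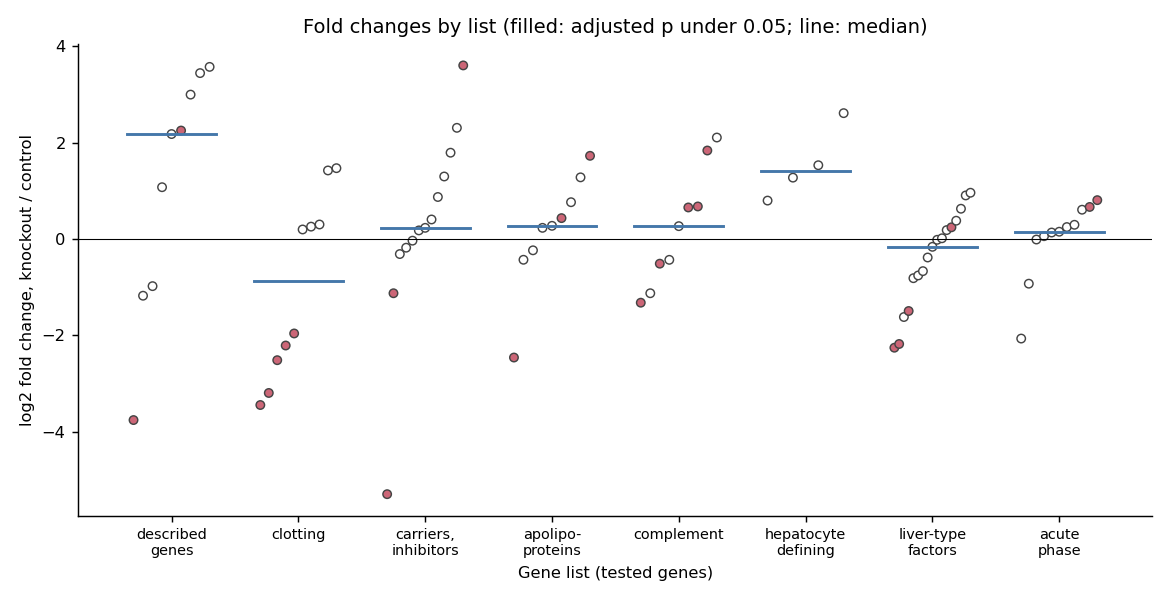
Log2 fold change, knockout over control, of every tested gene in 8 lists, with a line at the median; filled points have an edgeR adjusted p under 0.05. The clotting list has its 5 calls below 0, while the described genes, chosen on these libraries, run from -3.76 to 3.57.

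Over the 5 liver-type lists together, 91 genes outside the members, 90 had a row and 45 were tested. Of these 45, 16 were called, 6 higher and 10 lower, beside 14.9% of all genes tested (6.61% higher and 8.27% lower). The median log2 fold change of the 45 was 0.27. The balance turned with other settings, to 7 higher and 4 lower with the Y-linked covariate and to 17 higher and 11 lower with DESeq2. Knockout kidneys 1 and 4 were the 2 highest libraries for 19 of the 45, beside 7.70% of all genes tested, and the lists were put together with earlier results known. Of the 16 calls, 16 held without control kidney 2, 15 without knockout kidney 3, 2 without control kidney 1, 2 without control kidney 3, 5 without control kidney 4, 4 without knockout kidney 1, 5 without knockout kidney 2 and 0 without knockout kidney 4. All 16 kept their direction in each of these fits, as well as without knockout kidneys 1 and 4 together, where 0 were called.

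Defining hepatocyte genes were low in every kidney, and their sum was highest in knockout kidneys 1 and 4. The 20 genes of this list, enzymes and receptors of bile acid, urea and drug metabolism, summed to between 5.77 and 10.5 CPM in controls and to 27.2, 11.6, 9.27 and 24.96 CPM in knockout kidneys 1 to 4. Only 4 passed the filter, 0 were called by edgeR and 3 had an unadjusted p under 0.05, with a median log2 fold change of 1.40. Cps1, the entry enzyme of the urea cycle, was at 0.533, 0.556, 0.484 and 0.49996 CPM in controls and at 5.32, 0.753, 0.450 and 6.19 CPM in knockouts. Cyp7a1, the rate-limiting enzyme of bile acid synthesis, had 0 counts in 6 libraries and was at 0.549 and 0.612 CPM in knockout kidneys 1 and 4, and Cyp2c29 had 0 counts in all 8. Not all genes of the list had this order. The 2 highest libraries were knockout kidneys 1 and 4 for Cps1 and Arg1 but not for Asgr1 and Tdo2, the other 2 that were tested. Of the genes not tested, Tat, Cyp3a11, Cyp7a1, Cyp8b1, Hamp and Uox also had this order and the others did not. Tat was at 3.46 and 2.84 CPM and Cyp3a11 at 3.51 and 3.17 CPM in knockout kidneys 1 and 4. Elsewhere they were at most at 0.404 and 0.283 CPM. Asgr1, a subunit of the asialoglycoprotein receptor, was at 2.83, 5.38, 2.66 and 1.68 CPM in controls and at 4.14, 6.48, 5.67 and 5.50 CPM in knockouts. Tdo2, an enzyme of tryptophan breakdown, was highest in knockout kidney 2 at 1.36 CPM, and the bile acid transporter Slc10a1 in control kidney 4 at 1.86 CPM. Of the 20 genes, 13 were under 1 CPM in every library. A list of 8 genes of other liver cells summed to between 2.499 and 3.32 CPM in controls and to between 2.86 and 7.90 CPM in knockouts, highest in kidney 1, and 0 of its 2 tested genes were called by edgeR, with 0 at an unadjusted p under 0.05. The part of these liver genes in the levels of the members was not tested.

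Other tissues were checked in the same way. In the pancreas list Prss2 had 0 counts in all libraries, 3 of 12 genes were tested and 0 were called by edgeR, with 0 at an unadjusted p under 0.05. In the red cell list 0 of 7 were called by edgeR, with 0 at an unadjusted p under 0.05. Its sum was between 397 and 820 CPM in controls and 814, 456, 564 and 1397 CPM in knockout kidneys 1 to 4, and for Hba-a2, Hbb-bt and Alas2 knockout kidneys 1 and 4 were the 2 highest libraries. The part of blood in the levels of the members was not tested. The platelet list had 1 call, Pf4 (1.16, SE 0.12, edgeR adjusted p = 0.0050), which held in all 8 fits with 1 library left out and was at 22.7, 22.1, 21.1 and 21.1 CPM in knockouts and between 8.77 and 12.1 CPM in controls. In the adrenal list 12 of 14 genes were tested, 0 were called by edgeR and 8 had an unadjusted p under 0.05. Control kidney 4, with an adrenal sum of 194 CPM, had Fgg at 1.09 CPM and Ahsg at 2.27 CPM, while knockout kidney 4, with 491.2 CPM, had them at 13.2 and 38.2 CPM. Among controls, kidney 4 was the highest for Fga, Fgg and Alb (7.54, 1.09 and 7.09 CPM). It was behind control kidney 3 for Fgb and Ahsg and the lowest control for Apoa1. Over the 8 libraries, which differ in genotype and of which knockout kidneys 1 and 4 are high on both sides, log2 CPM correlated with the mean of the adrenal list at r = 0.94 for Fgg, 0.94 for Alb, 0.93 for Ahsg, 0.87 for Fgb, 0.70 for Fga and 0.64 for Apoa1. For Serpina1b, Afp and Ttr r was 0.46, 0.34 and -0.13. The part of adrenal tissue in the levels of these genes was not tested. Of the tubular injury list, 1 of 10 was called, Spp1 (-2.50, SE 0.64, edgeR adjusted p = 0.035), which kept the call without control kidney 2 or knockout kidney 3 and had an edgeR adjusted p from 0.075 to 0.105 without any 1 of the other 6.

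Regulators known from liver were tested in 17 of 19 cases, with 1 called higher and 3 lower and a median log2 fold change of -0.16. Hnf4a fell (-2.26, SE 0.57, edgeR adjusted p = 0.034), and so did the bile acid receptor Nr1h4 (-2.18, SE 0.59, edgeR adjusted p = 0.041) and Ppara (-1.49, SE 0.43, edgeR adjusted p = 0.047). Hnf4a was at 109.8, 63.6, 122 and 163 CPM in controls and at 29.6, 3.31, 35.2 and 27.4 CPM in knockouts, so that kidneys 1 and 4, where Alb was highest, did not stand out from kidney 3. Zhx2, a repressor of Afp in adult mouse liver, was slightly higher in knockouts (0.24, SE 0.07, edgeR adjusted p = 0.047). Ppara is named beyond the rule. All 4 calls held without control kidney 2 or knockout kidney 3, 2 held without knockout kidney 2, and 0 held without any 1 of control kidneys 1, 3 and 4 and knockout kidneys 1 and 4 (highest edgeR adjusted p 0.134). Of the proximal tubule list, 18 of 20 were called, 0 higher and 18 lower, beside 14.9% of all genes tested, with a median of -2.92. Of the 18 calls, 1 held without knockout kidney 4, 5 without knockout kidney 1, and 7, 7 and 8 without control kidneys 1, 3 and 4. Without knockout kidney 2, 13 held, and without control kidney 2 or knockout kidney 3, 18 held.

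In the acute phase list, which holds interleukin-6 signalling genes and inducible plasma proteins, 11 of 15 genes were tested, 2 were called higher and 0 lower, and the median log2 fold change was 0.15. Lbp, which binds bacterial lipopolysaccharide, was at 33.4, 39.8, 41.5 and 40.3 CPM in controls and at 71.7, 54.4, 55.5 and 64.0 CPM in knockouts (0.66, SE 0.11, edgeR adjusted p = 0.013), and the receptor Osmr was higher too (0.81, SE 0.17, edgeR adjusted p = 0.023). The classical acute phase gene Saa1 was at 3.60, 2.04, 2.58 and 1.27 CPM in controls and at 1.14, 2.01, 0.934 and 0.971 CPM in knockouts, lowest in knockout kidneys 3, 4 and 1, and Il6 was at most at 0.151 CPM. Saa3 was at 0.287, 0.185, 0.161 and 0.136 CPM in controls and at 1.35, 0.351, 0.484 and 0.612 CPM in knockouts. Crp was at 1.14 and 0.755 CPM in knockout kidneys 1 and 4 and at most at 0.278 CPM elsewhere. Neither passed the filter. Saa2 and Apcs, like Saa1, had lower means in knockouts. Il6, Crp, Apcs and the Saa genes were named after their values had been seen. Of the 11 tested genes, 3 (Il6ra, Steap4, Lbp) had knockout kidneys 1 and 4 as the 2 highest libraries, beside 7.70% of all tested. Lbp lost its call without knockout kidney 4 (edgeR adjusted p 0.053). Osmr kept it without control kidney 2 or 4 or knockout kidney 3 and was at an edgeR adjusted p of 0.055 to 0.067 without any 1 of the other 5.

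The genes whose log2 CPM ran most like each member over the 8 libraries were looked for among 14179 tested genes. All of them averaged 1 CPM or more. The members, Xist, Y-linked genes, pseudogenes and genes without a name beyond a number or clone were left out beforehand, so none of these could come out as nearest. The libraries are 8 points of 1 tissue in 2 genotypes, and when knockout kidneys 1 and 4 were left out, a step added after seeing the data, 2 of the 27 nearest genes stayed among the nearest 3. For Fgb the nearest was Kng1 (Pearson r = 0.99), for Fgg Itih3 (0.97) and for Fga Hp (0.98), these 3 being genes of plasma proteins. Next came Igfbp1 and Steap4 for Fgb (0.98 and 0.97) and Plppr2 and Igfbp1 for Fga (0.96 and 0.95). For Fgg they were Disp2 and Nr5a1 (both 0.97), the latter from the adrenal list. For Alb the nearest were Usp47, Serpina1e and Disp2 (0.99, 0.98 and 0.98). For Ahsg they were Usp47 (0.996), Th of the adrenal list (0.97) and Disp2 (0.97). Usp47, a deubiquitinase, was at 174.9 and 175.3 CPM in knockout kidneys 1 and 4 and between 157 and 165 CPM elsewhere, so likeness in order went with very different sizes. For Ttr the nearest were Kcnj15, Fbxo40 and Gpx3 (0.997, 0.993 and 0.993), each called lower (log2 fold changes -2.64, -2.45 and -2.53, SE 0.49, 0.54 and 0.43, edgeR adjusted p 0.017, 0.024 and 0.014). Gpx3 lost this call without knockout kidney 4, Kcnj15 without control kidney 1 or 3 or knockout kidney 1 or 4, and Fbxo40 without any 1 library but control kidney 2 or knockout kidney 3, with edgeR adjusted p up to 0.057, 0.061 and 0.079. For Afp the nearest was Cbs (0.98), for Serpina1b Serpina1a (0.97), and for Apoa1 Tmem196 and Scn3b (both 0.995). Within the members r was 0.98 for Alb with Ahsg, 0.98 for Fgg with Alb, 0.98 for Afp with Serpina1b, 0.95 for Fga with Fgb and -0.77 for Ttr with Apoa1.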

How the data were processed

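Counts per gene were deposited by the authors as whole numbers, 1 table per library, with gene position, strand and exon length per the file headers. Trimmomatic 0.36, STAR 2.5.2b, featureCounts (Subread 1.5.2), DESeq2 and GRCm38 are named in the submitters' processing notes, without roles or order. Strand setting and the treatment of reads with several matches are not given in the sources used here. Libraries were made from messenger RNA bound to oligo(dT) beads, per the labels' protocols.

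The counts equalled those of the table of the whole series in every cell (0 differing). Of 49315 IDs, 49056 had a symbol and 259 none. Tests used edgeR 4.0.16 in R 4.3.3 (quasi-likelihood, TMM sizes, default filterByExpr leaving 18485 genes, Benjamini-Hochberg adjustment, called at an adjusted p under 0.05, standard errors taken as the log2 fold change over the square root of F) on knockout against control, 4 libraries each. DESeq2 1.42.0 and limma 3.58.1 were alternatives, as were other scalings and filters, the replicate number as a block, a Y-linked covariate, and libraries left out. Correlations used log2 CPM with a prior count of 2. Tables and figures used numpy 2.4.6, pandas 2.3.3, scipy 1.17.1 and matplotlib 3.10.9. The fits were tested on simulated data.

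The members, lists and tests were chosen with earlier results of these data known. By rule, the genes to name were all members, the 3 nearest to each by correlation, and up to 3 per list. The latter were the called genes with the smallest adjusted p, or else those with the highest mean. The rule also covered copies and neighbours of the members and, for lists of other cell types, genes without counts in any library. All other genes named were added with their values known, whether or not the text says so beside them. Upstream windows of 250 bases came from RefSeq GRCm38.p6 and were found for 9 of the 10 members. Of IDs matched to the GENCODE gene records, 91.4% had the same start and end. An item of the regulator list is not reported here.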

Additional observations from a re-analysis of the deposited data

Results flagged for a closer look

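Summed levels of gene lists were checked for a library standing far from the other 3 of its group, in 36 groups of 4 libraries, and chance alone marks about 1 in 20 such groups. The adrenal list summed to 194.165 CPM in control kidney 4, where the lowest control had 35.6 CPM. The same list summed to 3423.55 CPM in knockout kidney 1, where the lowest knockout had 24.3 CPM. The platelet list summed to 31.827 CPM in knockout kidney 2, below the other 3 knockouts, whose highest was 34.97 CPM. The part of these lists in the levels of the fibrinogen and liver-type genes was not tested.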

How the results depend on the processing

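The edgeR fit called 2751 genes, 2 of the 10 described genes and 16 other liver-type genes. DESeq2 called 4468, 5 and 28, and limma-voom with sample weights called 8302, 2 and 25. Leaving out 1 library gave 153 (without knockout kidney 4) to 7084 genes (without control kidney 2), 0 to 5 described genes and 0 to 21 other liver-type genes. Without knockout kidneys 1 and 4 together these counts were 1, 0 and 0. DESeq2's size factors and both other filters moved no count by over 1.5 times. With Y-linked transcripts as a covariate 2079 genes were called, 1040 higher and 1039 lower, against 1222 and 1529. The same covariate gave 11 calls among the other liver-type genes. Of the 27 genes nearest to a member, 2 stayed among the nearest by Spearman's correlation, 12 without knockout kidney 1 and 2 without knockout kidneys 1 and 4, the last an alternative chosen after seeing the data.

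Same-numbered libraries deviated from their group means with correlations of -0.108, 0.329, 0.228 and -0.059. For control kidneys 2 and 3 the best match was the knockout kidney of the same number, and for control kidneys 1 and 4 it was another. These values do not settle whether the numbers pair the kidneys. With the replicate block 3229 genes, 3 described genes and 14 other liver-type genes were called.

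Low counts limit Fabp1 and the fibrinogen chains in knockout kidney 2. The causes of these differences between settings were not tested.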

Other observations

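Kng1 and Kng2 both encode kininogens, the precursors of bradykinin, and are neighbours on chromosome 16. They were compared after their values had been seen. Kng1 made up 1.74%, 2.42%, 1.75% and 1.05% of the summed counts of the pair in control kidneys 1 to 4, and 62.0%, 5.36%, 2.55% and 44.6% in knockout kidneys 1 to 4. Kng1 was highest in the kidneys with high fibrinogen, at 8.28 and 4.75 CPM. Kng2 was called lower in knockouts (log2 fold change -3.08, edgeR adjusted p = 0.028), and kept this call without control kidney 2 or knockout kidney 3, with an edgeR adjusted p from 0.064 to 0.091 without any 1 of the other 6. Igfbp1, a secreted binder of insulin-like growth factors, was at 4.67, 7.09, 10.9 and 7.68 CPM in controls and at 27.5, 0.954, 4.95 and 22.3 CPM in knockouts, again highest in kidneys 1 and 4 and lowest in kidney 2.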
